A study of Homo sapiens with 6 samples.

Results

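The genes described here encode the core autophagy machinery, chosen as a list of 39 gene symbols and looked up by symbol in the first column of the gene table. All 39 were found among the 19021 rows of the table. They were measured by RNA sequencing in Huh7, a human hepatocellular carcinoma cell line labelled as wild type (WT) in genotype. The carfilzomib group (3 libraries) was treated with carfilzomib, a drug that inhibits the proteasome, for 24 h, and the DMSO group (3 libraries) received the solvent DMSO for 24 h. All 6 libraries come from this 1 cell line, and the sources used here name no dose. The labels do not say whether replicates are separate cultures, and the spread that the p-values measure may therefore be technical.

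Macroautophagy encloses cytoplasm in a new double membrane, the autophagosome, and delivers it to the lysosome. The ULK kinase complex starts the process, a lipid kinase complex marks the forming membrane with the lipid PI3P, lipid transfer proteins and scramblases enlarge the membrane, ubiquitin-like conjugation attaches ATG8 proteins to it, and tethers and SNARE proteins fuse the closed autophagosome with the lysosome. Autophagy and the proteasome are the main routes of protein breakdown in cells, and in liver autophagy also degrades lipid droplets and damaged mitochondria.

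Values are FPKM, reads scaled to gene length and to the reads of the library. Levels can thus be compared between genes, as far as the gene lengths used are right. Differences are carfilzomib minus DMSO on the log2(FPKM + 1) scale, where changes of low genes look smaller than they are, and a gene is said to have risen or fallen when its adjusted p was under 0.05 by limma, a linear model fitted to all tested genes, with Benjamini-Hochberg adjustment. The test took genes averaging 1 FPKM or more across all libraries, which left 36 of the 39 members and 11153 genes of the table. Errors are SD over 3 libraries for levels and SE for differences.

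The library totals used for the FPKM values, as recovered from them, were 38386581 to 39651170 reads, with 99.6% to 99.64% in listed genes. These totals need not count every sequenced read. Tested members had 285 to 9271 reads in a library. All 8 hepatocyte markers examined (ALB, AFP, APOA2, APOB, TTR, SERPINA1, HNF4A and FGB) were expressed, with summed levels of 4668 to 4764 FPKM in the carfilzomib libraries and 10345 to 10553 FPKM in the DMSO libraries, and all 8 fell. In bulk RNA, fewer cells of a type and less RNA per cell cannot be told apart. Of 4 blood and immune markers 3 were listed, with sums of 203 to 231 FPKM with carfilzomib and 344 to 357 FPKM with DMSO that came almost wholly from LYZ, which fell (172 and 319 mean FPKM in carfilzomib and DMSO libraries), and CD68, which rose (46.9 and 33.2), while PTPRC was at no more than 0.0196 FPKM in any library. The 4 fibroblast and stellate markers summed to 4.11 to 4.31 FPKM with carfilzomib and 6.47 to 7.04 FPKM with DMSO, 3 listed endothelial markers of 4 to 2.38 to 2.97 and 3.74 to 4.33 FPKM, and the 3 biliary markers to 184 to 189 and 112 to 115 FPKM. Among the biliary markers KRT19 rose (161 and 83.3 mean FPKM in carfilzomib and DMSO libraries) and SOX9 fell (24.6 and 29.5). No listed marker was at 0 in every library, and their part in the results below was not tested. On the second principal component (1.22% of the variance) DMSO replicate 1 was separated from its group. It held the lowest DMSO value for 22 of the 36 tested members and for 4667 of all 11153 tested genes.

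Core autophagy genes were more often higher than lower with carfilzomib. Of the 36 tested members, 25 rose (69.4%), 7 fell (19.4%) and 4 had no call, while of all 11153 tested genes 36.7% were called higher and 44.9% lower, 81.6% in all. Without DMSO replicate 1, 23 members were called higher and 7 lower. The median difference was 0.30 for the members and -0.07 for all tested genes. A rise of at least 0.5 was seen in 12 members (33.3%, against 17.0% of all tested genes) and a fall of at least 0.5 in 3 (8.33%, against 23.1%). At least 2-fold rises on the log2(FPKM + 1) scale, a difference of at least 1, were seen in ATG101, RUBCN and ATG16L1. Of all tested genes 5.28% rose that far. No tested member (0) fell that far on this scale, against 7.84% of all tested genes. In plain mean FPKM, ATG14, ATG4A and PLEKHM1 also rose more than 2-fold (2.05, 2.10 and 2.04 times DMSO). ULK3 and STX17 fell to 0.460 and 0.497 times DMSO. No share of all tested genes was taken for these plain ratios. The carfilzomib and DMSO libraries did not overlap in 33 of the 36 members (91.7%), against 82.8% of all tested genes, which is close to this background.

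**Figure D1:**
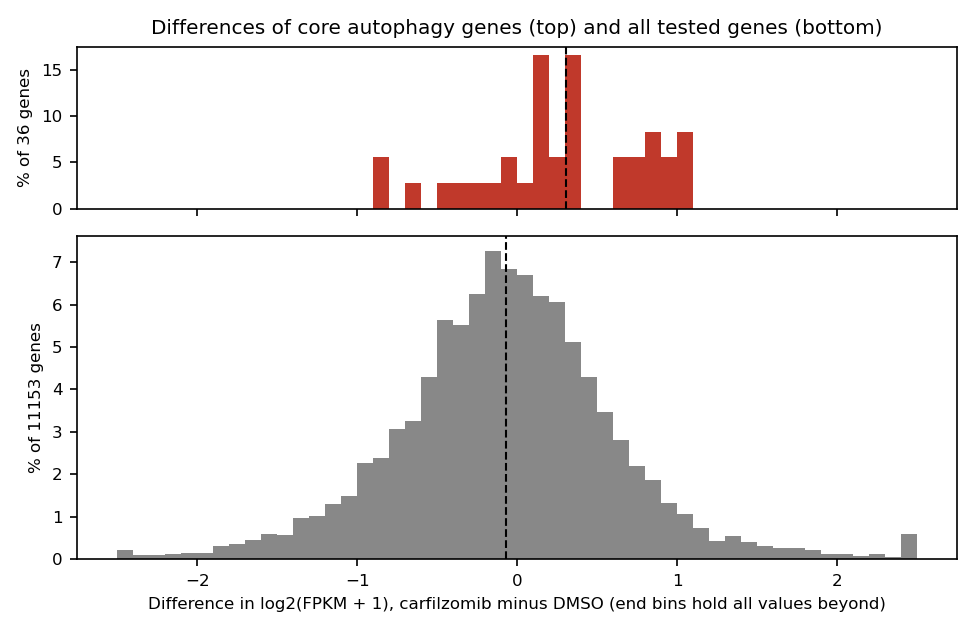
Distribution of the difference in log2(FPKM + 1), carfilzomib minus DMSO, in percent of genes per bin, for the 36 tested core autophagy genes (top) and all 11153 tested genes (bottom), with dashed lines at the medians; the end bins hold all values beyond. The members' median is 0.30 and that of all tested genes is -0.07.

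The members together took 2363, 2400.3 and 2408 of every 1000000 reads in the carfilzomib libraries, against 1813, 1840 and 1869 in the DMSO libraries, a sum in which long genes weigh more. The groups did not overlap, the ratio of the means was 1.30, and an exact permutation test (two-sided) gave p = 0.1, which 3 against 3 libraries cannot go below. The summed reads of each of the 5 functional groups were higher in all carfilzomib libraries than in any DMSO library. Ratios ran from 1.14 for fusion and tethering genes to 1.42 for the lipid kinase complex. The fusion sum does not describe its genes one by one, as 2 were called higher and 2 lower, with a median difference of -0.0025. EPG5, which rose, held the most reads of this group with carfilzomib (2882, 2673 and 2739, against 1422, 1453 and 1469 with DMSO).

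**Figure D2:**
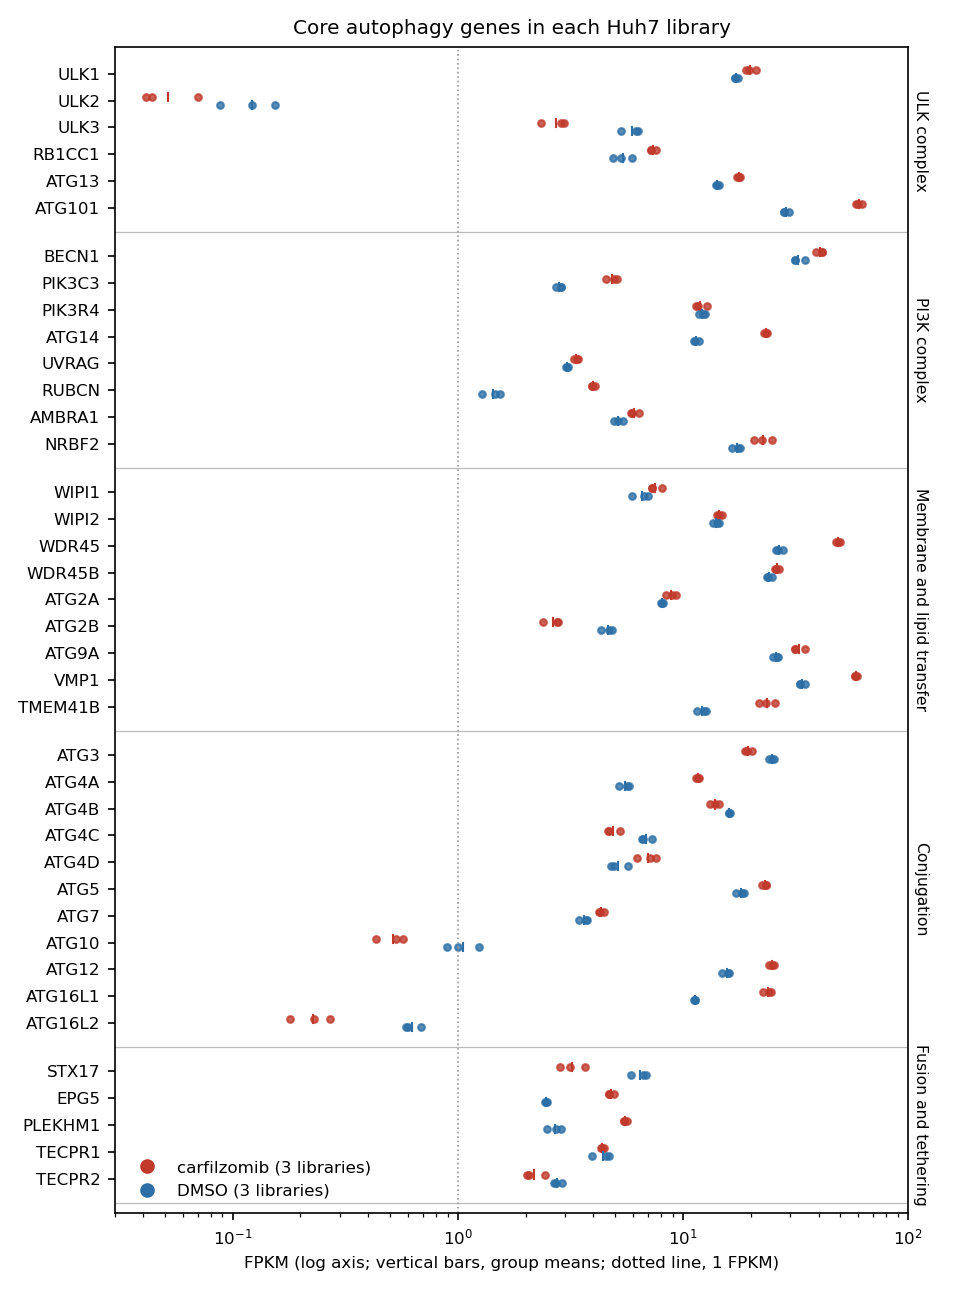
FPKM (log axis) of the 39 core autophagy genes in each library, grouped by role; points are libraries and short vertical bars are group means. Carfilzomib libraries lie to the right of the DMSO libraries for most genes, and ULK2, ATG10 and ATG16L2 lie near or below 1 FPKM.

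The promoter windows of the members at the ends of the range of differences are shown because transcription factors of the stress and lysosome programmes are known to act through short promoter motifs. RefSeq windows (build GRCh38.p14, 250 bases before to 50 after a start) were matched by symbol for 33 members, 38 windows in all, and RB1CC1, UVRAG, WDR45B, ATG4D, STX17 and EPG5 were not matched. The 3 tested members with the highest differences on the log2(FPKM + 1) scale are ATG101 (chr12:52069728-52070027, plus strand), RUBCN (chr3:197749771-197750070, minus strand, the first listed of its 2 windows) and ATG16L1 (chr2:233251423-233251722, plus strand), and the one with the lowest is ULK3 (chr15:74843107-74843406, minus strand). Capitals mark matches, on either strand, to CACGTG (the E-box, core of the CLEAR element bound by TFEB and TFE3), TCACGTGA (a longer CLEAR core that contains the E-box), TGACNNNGC (the core of the antioxidant response element bound by NRF1 and NRF2) or TGANGCAA (a core of the C/EBP-ATF element).
ATG101 promoter window: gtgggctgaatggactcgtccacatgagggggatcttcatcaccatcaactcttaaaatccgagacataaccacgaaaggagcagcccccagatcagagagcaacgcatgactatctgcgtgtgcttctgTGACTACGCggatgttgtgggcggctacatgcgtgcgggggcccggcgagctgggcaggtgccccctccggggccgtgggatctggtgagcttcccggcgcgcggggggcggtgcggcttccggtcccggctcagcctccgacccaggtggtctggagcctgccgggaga
RUBCN promoter window: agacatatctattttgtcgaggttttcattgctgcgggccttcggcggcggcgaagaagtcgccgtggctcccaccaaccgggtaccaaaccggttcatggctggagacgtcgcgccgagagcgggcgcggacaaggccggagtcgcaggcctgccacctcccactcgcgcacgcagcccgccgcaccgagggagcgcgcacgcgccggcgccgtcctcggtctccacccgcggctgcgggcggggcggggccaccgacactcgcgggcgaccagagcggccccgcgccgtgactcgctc
ATG16L1 promoter window: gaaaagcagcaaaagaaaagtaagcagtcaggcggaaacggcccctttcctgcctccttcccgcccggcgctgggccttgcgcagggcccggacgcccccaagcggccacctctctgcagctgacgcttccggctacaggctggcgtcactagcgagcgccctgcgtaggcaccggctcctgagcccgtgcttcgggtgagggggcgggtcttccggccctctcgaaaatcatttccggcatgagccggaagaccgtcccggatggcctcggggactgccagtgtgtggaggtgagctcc
ULK3 promoter window: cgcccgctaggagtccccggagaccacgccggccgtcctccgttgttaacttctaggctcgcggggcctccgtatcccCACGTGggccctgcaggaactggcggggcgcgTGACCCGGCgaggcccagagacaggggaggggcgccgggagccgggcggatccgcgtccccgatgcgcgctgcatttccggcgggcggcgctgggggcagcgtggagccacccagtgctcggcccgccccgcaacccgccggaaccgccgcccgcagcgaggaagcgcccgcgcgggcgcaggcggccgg

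The ATG101 window held 1 match, to TGACNNNGC, at position -120 relative to the start site, and the RUBCN and ATG16L1 windows shown held none (0). The ULK3 window held an E-box match at -172 and a TGACNNNGC match at -140. Over the 38 windows of members, CACGTG occurred in 4 (10.5%; ATG14, ATG3, NRBF2 and ULK3), against 9.65% of 13014 windows of tested genes. TCACGTGA occurred in 2 (5.26%; ATG3 and NRBF2), against 1.81%. TGACNNNGC occurred in 3 (7.89%; ATG101, TECPR1 and ULK3), against 14.8%, and TGANGCAA in 2 (5.26%; ATG7 and TECPR2), against 2.54%. Among these genes ATG14, NRBF2, ATG101 and ATG7 rose, ATG3, ULK3 and TECPR2 fell, and TECPR1 had no call. A match describes letters in the window and not a bound site.

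Of 5 tested genes of the initiation complex, 4 rose and the kinase gene ULK3 fell. This count stands against 36.7% of all tested genes called higher and 44.9% called lower. ATG101, which stabilises ATG13 in the complex, had 60.1, 62.5 and 58.4 FPKM with carfilzomib, against 28.0, 29.6 and 28.0 FPKM with DMSO, a difference of 1.05 (SE 0.0374, adjusted p = 3.42e-09 by limma). Every carfilzomib value was above every DMSO value. On this scale its difference was next to that of RUBCN (1.04), and the order of these genes turned with a pseudocount of 0.1, rescaled to TPM, with quantile normalization, with limma-voom, and without carfilzomib replicate 2 or DMSO replicate 3. ATG13, the HORMA-domain partner that links the kinase to the scaffold, averaged 17.7 ± 0.211 FPKM with carfilzomib and 14.2 ± 0.278 FPKM with DMSO. RB1CC1, also called FIP200, the scaffold of the complex, averaged 7.32 ± 0.201 and 5.39 ± 0.523 FPKM in the same order of groups. ULK1, the main kinase, rose by a smaller value, with 19.9 ± 0.998 FPKM with carfilzomib and 17.2 ± 0.340 FPKM with DMSO, a difference of 0.20 (SE 0.0425, adjusted p = 0.00135 by limma).

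ULK3, a related kinase with roles in autophagy and Hedgehog signalling, went the other way, with 2.34, 2.97 and 2.88 FPKM with carfilzomib, against 5.32, 6.30 and 6.21 FPKM with DMSO. The groups did not overlap, and its difference of -0.90 (SE 0.0821, adjusted p = 3.36e-06 by limma) was the lowest of the tested members on the log2(FPKM + 1) scale, except without carfilzomib replicate 1, where STX17 was lower, and with a mean of at least 5 FPKM, where ULK3 was not tested. ULK2, the close paralogue of ULK1, was barely detected, with 15, 25 and 16 reads with carfilzomib against 32, 45 and 57 reads with DMSO. It was under the filter in this fit, and without a filter it was called lower (adjusted p = 0.0394 by limma). Within a library, ULK1 stood at 7.35 ± 0.757 times the FPKM of ULK3 with carfilzomib and 2.90 ± 0.258 times with DMSO.

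Genes of the class III PI3-kinase complex rose in 6 of 8 cases, and none (0) fell. Of all tested genes, 36.7% were called higher and 44.9% lower. PIK3C3, also called VPS34, the catalytic subunit, had 4.55, 5.07 and 4.94 FPKM with carfilzomib, against 2.72, 2.88 and 2.87 FPKM with DMSO (difference 0.61, SE 0.0566, adjusted p = 3.61e-06 by limma). The groups were well apart. BECN1, the Beclin 1 scaffold, was the most abundant subunit, at 40.6 ± 1.53 FPKM with carfilzomib and 32.5 ± 1.90 FPKM with DMSO. PIK3R4, the VPS15 regulatory subunit, had 11.7, 11.4 and 12.7 FPKM with carfilzomib, against 11.8, 12.5 and 12.3 FPKM with DMSO. These values overlap and the gene had no call (difference -0.03, SE 0.0480, adjusted p = 0.619 by limma), and its sign turned under 3 scaling alternatives and without carfilzomib replicate 2 (0.0023).

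The subunits that direct the kinase differed among themselves. ATG14, which targets it to the site of autophagosome formation, had 23.5, 23.4 and 23.0 FPKM with carfilzomib, against 11.2, 11.3 and 11.7 FPKM with DMSO (difference 0.97, SE 0.0360, adjusted p = 4.57e-09 by limma). UVRAG, which replaces ATG14 in the complex of endosomes, had 3.40, 3.29 and 3.40 FPKM with carfilzomib, against 3.09, 3.03 and 3.05 FPKM with DMSO. Its groups did not overlap but were close, and it had no call (difference 0.11, SE 0.0515, adjusted p = 0.0833 by limma), although it passed in 5 of 16 alternatives, among them all 3 scalings (adjusted p = 0.00122 to 0.167 over the 16). RUBCN, or Rubicon, which binds the UVRAG complex and restrains autophagosome maturation, had 3.94, 3.95 and 4.06 FPKM with carfilzomib, against 1.27, 1.54 and 1.47 FPKM with DMSO. This was 2.79 times higher in mean FPKM, the largest ratio of any tested member, with a difference of 1.04 (SE 0.0624, adjusted p = 1.41e-07 by limma). NRBF2, a stabilising subunit of the ATG14 complex, averaged 22.6 ± 2.08 FPKM with carfilzomib and 17.3 ± 0.703 FPKM with DMSO, and AMBRA1, a regulator of Beclin 1 and cullin ligases, averaged 6.05 ± 0.293 and 5.17 ± 0.236 FPKM in the same order of groups, and both rose.

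**Figure D3:**
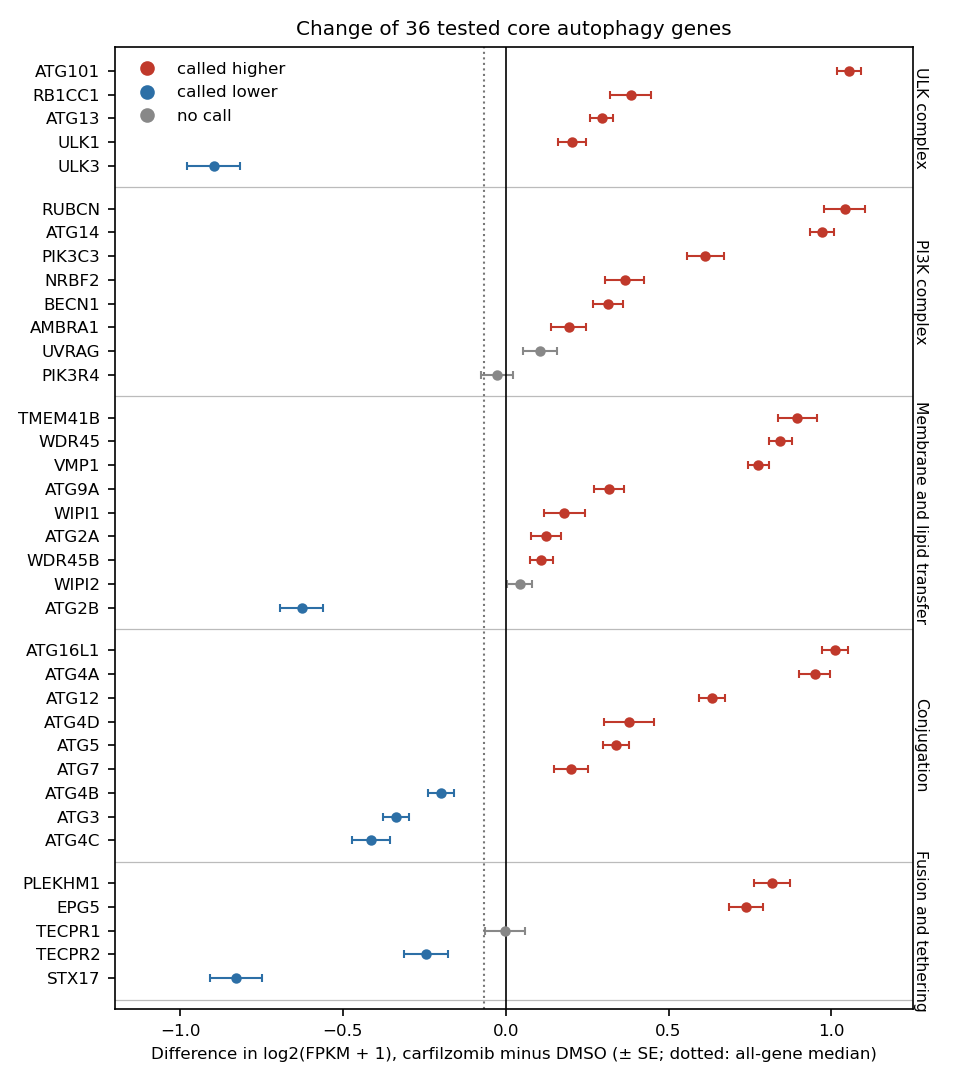
Difference in log2(FPKM + 1), carfilzomib minus DMSO, with its SE for the 36 tested core autophagy genes by role, coloured by call; the dotted line is the median of all tested genes. Rises reach 1.05 for ATG101 and falls reach -0.90 for ULK3.

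Among 9 genes for PI3P effectors, lipid transfer and scramblases, 7 rose (77.8%) and 1 fell (11.1%), against 36.7% of all tested genes called higher and 44.9% called lower. Without carfilzomib replicate 3 the number called higher in this group was 4. The scramblases VMP1 and TMEM41B, endoplasmic reticulum proteins that move lipids between membrane leaflets, rose together. VMP1 had 58.3, 59.0 and 58.0 FPKM with carfilzomib, against 33.1, 33.1 and 35.0 FPKM with DMSO (difference 0.78, SE 0.0325, adjusted p = 1.05e-08 by limma). TMEM41B had 21.8, 25.6 and 23.3 FPKM with carfilzomib, against 12.3, 11.5 and 12.7 FPKM with DMSO (difference 0.90, SE 0.0592, adjusted p = 2.91e-07 by limma). Neither gene's groups overlapped, and VMP1 stood next to ATG101 as the most abundant members with carfilzomib, while with DMSO its values overlapped those of BECN1. In GENCODE 29 the exons of VMP1 overlap those of PTRH2 on the opposite strand, which rose as well (22.3 against 9.11 mean FPKM), and the MIR21 gene on its own strand. The sources used here do not say whether counting used strand, and without strand the reads of VMP1 and PTRH2 in their shared stretch cannot be told apart. The same holds for every member with a gene on the opposite strand, which are 16 members whose partner is in the table, VMP1 included, and also ATG101, STX17 and PLEKHM1, whose antisense partners were not matched to it. Partners not named below changed like their member for BECN1 (PSME3, difference 0.31), ATG3 (SLC35A5, -0.33), WDR45B (FOXK2, 0.09), ATG7 (VGLL4, 0.38) and TECPR2 (ANKRD9, -0.46). Those of ATG13 (HARBI1, -0.28) and ATG12 (AP3S1, -0.14) fell while the member rose. FYTTD1 with RUBCN and KRI1 with ATG4D had no call, and CNTD1 with BECN1, UVRAG-DT with UVRAG and ARSG with WIPI1 were not tested. ATG9A, the scramblase of ATG9 vesicles, averaged 32.6 ± 2.04 FPKM with carfilzomib and 25.9 ± 0.706 FPKM with DMSO and rose too. Its exons overlap those of AC068946.2, a protein-coding gene on the same strand that was not matched to the gene table.

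The WIPI family of PI3P-binding propeller proteins changed unevenly. WDR45, also called WIPI4, which binds ATG2, had 47.7, 49.0 and 49.6 FPKM with carfilzomib, against 26.0, 26.4 and 27.8 FPKM with DMSO (difference 0.84, SE 0.0358, adjusted p = 1.13e-08 by limma). Its groups were far apart, and PRAF2, which overlaps it on the same strand, fell (5.83 against 6.94 mean FPKM). WDR45B, or WIPI3, had 25.5, 26.0 and 26.7 FPKM with carfilzomib, against 24.8, 23.9 and 23.6 FPKM with DMSO, and WIPI1 had 7.30, 7.27 and 8.05 FPKM with carfilzomib, against 5.93, 6.74 and 6.96 FPKM with DMSO. Both sets of values lie close together without overlap, and the differences were small at 0.11 (SE 0.0354, adjusted p = 0.0165 by limma) for WDR45B and 0.18 (SE 0.0636, adjusted p = 0.0240 by limma) for WIPI1. The WDR45B call was lost without carfilzomib replicate 3 (0.09), DMSO replicate 2 (0.10) or DMSO replicate 3 (0.09), at adjusted p = 0.0518 to 0.0616 by limma. The WIPI1 call was lost without carfilzomib replicate 3 (0.14) or DMSO replicate 1 (0.12), and without a filter on low values, at adjusted p = 0.0515 to 0.0953 by limma. WIPI2, which recruits ATG16L1 to the membrane, averaged 14.5 ± 0.361 FPKM with carfilzomib and 14.0 ± 0.427 FPKM with DMSO and had no call (difference 0.04, SE 0.0398, adjusted p = 0.340 by limma), except with median-of-ratios scaling (difference 0.11, adjusted p = 0.0203 by limma). Its groups overlapped.

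The lipid transfer genes ATG2A and ATG2B, which bridge the endoplasmic reticulum and the growing membrane, moved in opposite directions. ATG2A had 9.26, 8.44 and 8.94 FPKM with carfilzomib, against 8.05, 8.17 and 7.98 FPKM with DMSO, while ATG2B had 2.76, 2.39 and 2.80 FPKM with carfilzomib, against 4.34, 4.70 and 4.85 FPKM with DMSO. ATG2B fell (difference -0.63, SE 0.0650, adjusted p = 8.62e-06 by limma), with groups well apart. The rise of ATG2A was small (difference 0.12, SE 0.0458, adjusted p = 0.0302 by limma), and its call was lost in 5 of the 6 fits that left out a library, all but the one without carfilzomib replicate 2, with differences of 0.10 without carfilzomib replicate 1, 0.12 without carfilzomib replicate 3, and 0.12, 0.13 and 0.12 without DMSO replicates 1, 2 and 3 (adjusted p = 0.0518 to 0.111 by limma). ATG2B exons overlap those of GSKIP on the opposite strand, which also fell (10.7 against 12.7 mean FPKM).

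In the conjugation systems, 6 of 9 tested genes rose (66.7%) and 3 fell (33.3%), against 36.7% of all tested genes called higher and 44.9% called lower. The E3-like complex of ATG12, ATG5 and ATG16L1, which sets where ATG8 proteins are attached, rose in all parts. ATG16L1, its membrane-targeting subunit, had 22.6, 24.5 and 24.2 FPKM with carfilzomib, against 11.3, 11.2 and 11.4 FPKM with DMSO (difference 1.01, SE 0.0401, adjusted p = 7.29e-09 by limma). ATG12, the ubiquitin-like protein joined to ATG5, had 24.0, 25.4 and 24.9 FPKM with carfilzomib, against 14.9, 16.1 and 15.9 FPKM with DMSO (difference 0.63, SE 0.0404, adjusted p = 2.24e-07 by limma). Groups did not overlap for either gene. ATG5 averaged 23.1 ± 0.527 FPKM with carfilzomib and 18.0 ± 0.721 FPKM with DMSO, so that with carfilzomib the 3 genes stood at nearly the same FPKM.

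The enzymes that feed this complex did not move one way. ATG7, the E1 enzyme of both conjugation branches, averaged 4.32 ± 0.105 FPKM with carfilzomib and 3.63 ± 0.154 FPKM with DMSO and rose, whereas ATG3, the E2 enzyme for ATG8 proteins, averaged 19.4 ± 0.758 and 24.8 ± 0.700 FPKM in the same order of groups and fell. ATG10, the E2 enzyme for ATG12, was under the filter, with 135, 173 and 165 reads with carfilzomib against 312, 390 and 282 reads with DMSO. ATG16L2, a paralogue of ATG16L1, was also under the filter, with 77, 59 and 90 reads with carfilzomib against 231, 203 and 200 reads with DMSO. For both genes every carfilzomib value was below every DMSO value, and without a filter both were called lower (adjusted p = 0.00198 for ATG10 and 0.000221 for ATG16L2 by limma). ATG10 exons overlap those of the ribosomal protein gene RPS23 on the opposite strand, a far more abundant transcript (168 against 159 mean FPKM), and ATG16L2 exons overlap those of FCHSD2, which also fell (1.94 against 3.74 mean FPKM).

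The ATG4 proteases, which trim ATG8 proteins before conjugation and release them afterwards, split into 2 that rose and 2 that fell. ATG4A had 11.6, 11.8 and 11.4 FPKM with carfilzomib, against 5.20, 5.64 and 5.77 FPKM with DMSO (difference 0.95, SE 0.0480, adjusted p = 4.02e-08 by limma). ATG4D averaged 6.99 ± 0.678 FPKM with carfilzomib and 5.14 ± 0.478 FPKM with DMSO and rose as well. ATG4B averaged 13.8 ± 0.605 and 16.0 ± 0.106 FPKM and ATG4C 4.88 ± 0.329 and 6.82 ± 0.374 FPKM in the same order of groups, and both fell. THAP4, whose exons overlap those of ATG4B on the opposite strand, also fell (8.51 against 17.2 mean FPKM). ATG4B was the most abundant ATG4 gene in both groups, and ATG4A ranked next with carfilzomib, whereas with DMSO ATG4C, ATG4A and ATG4D lay between 4.80 and 7.25 FPKM.

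Of 5 genes for tethering and fusion, 2 rose (40.0%), 2 fell (40.0%) and 1 had no call. These shares are near the 36.7% of all tested genes called higher and 44.9% called lower. PLEKHM1, a RAB7 adaptor that bridges ATG8 proteins and the HOPS tether, had 5.62, 5.49 and 5.46 FPKM with carfilzomib, against 2.73, 2.50 and 2.89 FPKM with DMSO (difference 0.82, SE 0.0566, adjusted p = 4.11e-07 by limma). EPG5, a RAB7 effector that gives fusion its specificity, had 4.93, 4.67 and 4.70 FPKM with carfilzomib, against 2.43, 2.46 and 2.49 FPKM with DMSO (difference 0.74, SE 0.0517, adjusted p = 4.52e-07 by limma). For both genes all carfilzomib libraries were far above all DMSO libraries. STX17, the SNARE protein of the closed autophagosome, showed the opposite pattern, with 3.69, 2.84 and 3.13 FPKM with carfilzomib, against 5.90, 6.66 and 6.85 FPKM with DMSO (difference -0.83, SE 0.0808, adjusted p = 5.41e-06 by limma). TECPR2, linked to ATG8 proteins and secretory traffic, had 2.44, 2.07 and 2.04 FPKM with carfilzomib, against 2.66, 2.74 and 2.89 FPKM with DMSO and fell (difference -0.24, SE 0.0676, adjusted p = 0.00704 by limma), a call lost with quantile normalization (difference -0.10, adjusted p = 0.161 by limma). TECPR1, a lysosomal tether that binds ATG5, had 4.44, 4.35 and 4.33 FPKM with carfilzomib, against 4.67, 4.55 and 3.96 FPKM with DMSO. Its carfilzomib values lie inside the DMSO range, with no call (adjusted p = 0.971 by limma) and a sign that turned in 7 of 16 alternatives.

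Related genes within a library were set against each other in 12 pairs, as the log2 ratio of FPKM + 1. In 11 of the 12 pairs the 3 carfilzomib ratios did not overlap the 3 DMSO ratios, each with p = 0.1 by an exact permutation test (two-sided), the smallest the design allows (adjusted p = 0.109 over the 12 pairs), so no pair could pass a threshold of 0.05. Beside this count, 82.8% of all tested genes had groups that did not overlap. The shift in the log2 ratio was 1.42 for ATG16L1 over ATG16L2, 1.36 for ATG4A over ATG4C, 1.15 for ATG4A over ATG4B and 1.10 for ULK1 over ULK3. In plain FPKM, ATG4A stood at 2.39 ± 0.194 times ATG4C with carfilzomib and 0.812 ± 0.0288 times with DMSO, which turned the order of the genes. The order of ATG4C and ATG4D turned too, at 0.706 ± 0.119 times with carfilzomib and 1.34 ± 0.180 times with DMSO. Smaller shifts were 0.75 for ATG2A over ATG2B, 0.73 for WDR45 over WDR45B, -0.58 for ATG4B over ATG4D, 0.24 for TECPR1 over TECPR2 and 0.14 for WIPI1 over WIPI2. ULK1 over ULK2 shifted by 0.30 on this scale, where the added 1 FPKM far exceeds the level of ULK2. In plain FPKM, ULK1 stood at 408 ± 110 times ULK2 with carfilzomib and 149 ± 41.0 times with DMSO, ratios that rest on the few reads of ULK2. VMP1 over TMEM41B was the pair whose ratios overlapped, at 1.28 ± 0.105 with carfilzomib and 1.40 ± 0.0469 with DMSO on the log2 scale (exact permutation p = 0.2).

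**Figure D4:**
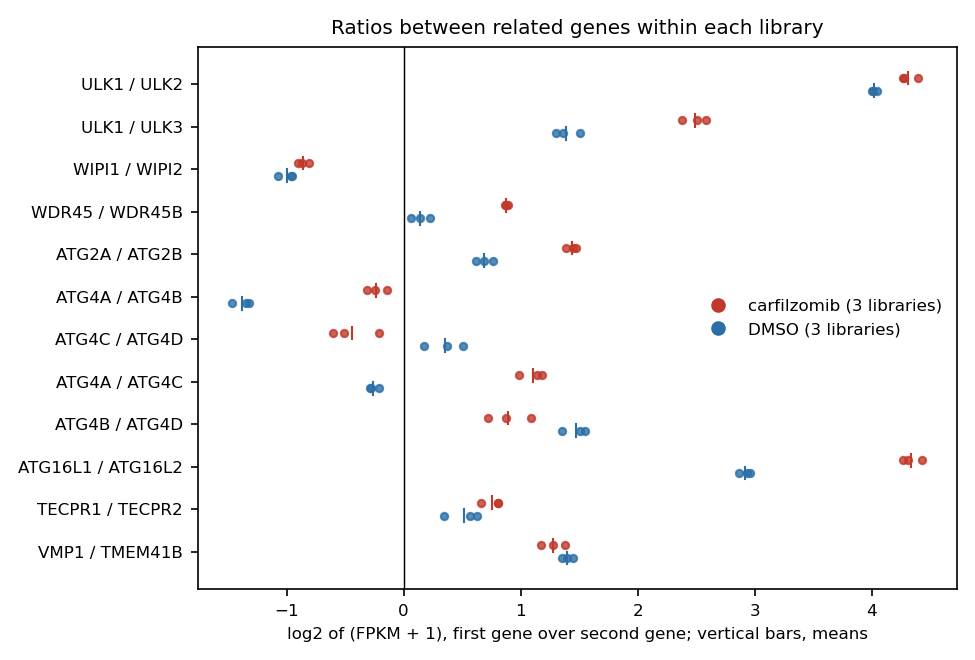
Log2 ratio of FPKM + 1 between 12 pairs of related core autophagy genes within each library; points are libraries and vertical bars are group means. The carfilzomib and DMSO ratios are apart in 11 pairs and overlap for VMP1 over TMEM41B.

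Genes that act around the core machinery were counted in 5 lists, without a test of any list, and each count stands against the 36.7% of all tested genes called higher and 44.9% called lower. Among 12 tested ATG8 proteins and cargo receptors, 8 rose (66.7%) and 4 fell (33.3%), with a median difference of 0.66, from GABARAPL1, an ATG8 protein (difference 2.73), to the receptor NBR1 (-0.49). SQSTM1, another receptor, rose by 1.01 and the ATG8 gene GABARAP fell by 0.28. Reads of MAP1LC3B and its near-identical copy MAP1LC3B2, which both rose, are uncertain, MAP1LC3A was under the filter and MAP1LC3C was not matched.

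Among 14 tested partners of lysosome fusion, 9 rose (64.3%) and 5 fell (35.7%), with a median difference of 0.34. YKT6, a SNARE that can also act on autophagosomes, rose by 1.16, with 86.9 FPKM with carfilzomib and 38.4 FPKM with DMSO on average. SNAP29 and VAMP8, the SNARE partners of STX17, both fell, SNAP29 with 14.6 and 21.7 mean FPKM (difference -0.54, adjusted p = 6.30e-06 by limma) and VAMP8 with 16.1 and 23.2 mean FPKM (difference -0.50, adjusted p = 1.25e-06 by limma) in carfilzomib and DMSO libraries. All 3 genes of this SNARE set were lower, but VAMP8 was named after its values were seen. Among all tested genes 44.9% were called lower, and whether the set differed from this background was not tested. VAMP7, of the same list, was under the filter, with a higher mean with carfilzomib and groups that overlapped. BORCS5, a subunit of the BORC complex that positions lysosomes, fell by 0.53.

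Of 25 tested genes of upstream control by mTORC1, TSC and AMPK, 13 rose (52.0%) and 11 fell (44.0%), the share that fell being near that of all tested genes (44.9%), with a median difference of 0.12. PRKAB2, a beta subunit of AMPK, rose by 0.94 and FNIP2, a folliculin partner, by 0.76. DDIT4, an inhibitor of mTORC1, fell by 1.45, with 31.5 FPKM with carfilzomib and 87.8 FPKM with DMSO on average, and MLST8, a subunit shared by both mTOR complexes, fell by 0.98.

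Of 10 tested transcription regulators of autophagy genes, 5 rose (50%) and 3 fell (30.0%), with a median difference of 0.18, and the share called either way was near the 81.6% of all tested genes. ATF4 rose by 0.42 and FOXO1 by 0.33, while XBP1 fell by 0.73 and NFE2L2 by 0.60. TFE3 rose by 0.29, with 55.7 mean FPKM with carfilzomib and 45.5 with DMSO, while TFEB, under the filter, had means of 0.200 and 0.252 FPKM in the same order of groups, both named after their values were seen.

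Of 12 tested membrane and lipid partners, 5 rose (41.7%) and 2 fell (16.7%), with a median difference of 0.07, the share that rose being near the 36.7% of all tested genes. VCP, the p97 segregase, rose by 0.86 and ZFYVE1, also called DFCP1, a marker of the forming autophagosome, by 0.77. SNX18, a membrane-remodelling sorting nexin, fell by 0.74, and TMEM41A, a relative of TMEM41B, by 0.33.

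**Figure D5:**
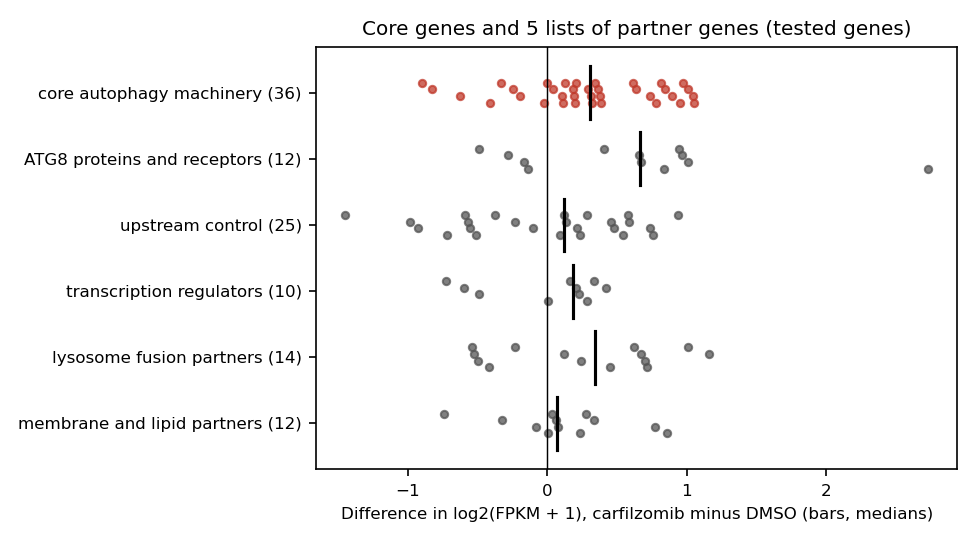
Differences in log2(FPKM + 1), carfilzomib minus DMSO, of the 36 tested core autophagy genes and the tested genes of 5 partner lists; points are genes and bars are medians. The medians run from 0.07 for membrane and lipid partners to 0.66 for ATG8 proteins and receptors, with 0.30 for the core genes.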

How the data were processed

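RNA of 6 Huh7 samples (3 carfilzomib, 3 DMSO, 24 h) was sequenced. The authors deposited 1 table of FPKM values with 1 column per library and 19021 gene rows. Per the submitters' processing notes, the tools were HISAT2, HTSeq, fastp, DESeq2 and R 3.2.0, and the build was GRCm39, a mouse build, while the row names are human symbols. Strand use in counting is not stated. No column belonged to another series.

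Differences were tested with limma 3.58.1 in R 4.3.3 (lmFit, eBayes with a mean-variance trend, two-sided) on log2(FPKM + 1) over the 11153 genes averaging 1 FPKM or more, with Benjamini-Hochberg adjustment over all of them. The fit was also run on simulated data, in which far fewer genes changed than were called here. That run therefore does not measure false calls in these data. Whole reads were recovered from the ratios between libraries (SciPy 1.17.1 and NumPy 2.4.6 in Python 3.11.15) in 19018 rows (99.98%, relative tolerance 1e-13), including all 39 members, which gave the library totals. Their reads entered a limma-voom alternative. No library was a copy of another, with a chi-square per degree of freedom of 3.68 to 6.89 between replicates.

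Every member is accounted for. Values in each library are given for members called with a difference of at least 0.5, for the largest change in each role group, and for those whose call or sign an alternative ends or turns. From each partner list the 2 largest rises and 2 largest falls are named, except 1 gene that is not reported here. Members, lists and tests were chosen with earlier results of these data known. Overlapping genes were looked up by exon in GENCODE 29 (GRCh38), where exons of 16 members overlap a listed gene on the opposite strand and those of WDR45 overlap PRAF2 on its own strand.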

Additional observations from a re-analysis of the deposited data

How the results depend on the processing

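Of the 32 calls among members, 28 held in every one of the up to 17 alternatives run for them, 22 of them higher and 6 lower. The exceptions are WIPI1, WDR45B, ATG2A and TECPR2. Members called higher numbered 20 to 27 and lower 3 to 10 over the alternatives that keep all libraries, and 22 to 25 and 7 when a library was left out, where the membrane group had 4 called higher without carfilzomib replicate 3. With a mean of at least 5 FPKM, which tests fewer genes, 3 members and 3246 of all genes were called lower. Without a filter 10 members were called lower, since ULK2, ATG10 and ATG16L2 entered.

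PIK3R4 had a difference of 0.0444 with median-of-ratios scaling, 0.0111 rescaled to TPM and 0.0339 with quantile normalization, and -0.0698 to 0.00225 when a library was left out. TECPR1 had 0.0600, 0.0348 and 0.110 under the same scalings and -0.0618 to 0.0349 when a library was left out. Neither was called in any of them, and the cause was not tested. All 12 ratios between related genes kept their direction under the alternatives run.

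No pairing of the libraries by replicate number was detected. Correlations between the deviations of same-numbered libraries were -0.0121 to 0.0126, and 1 of 6 libraries correlated best with its own number. These values cannot tell whether same-numbered libraries were handled together. With the replicate block, 25 members were called higher and 7 lower, with 4059 and 4995 of all genes and 37 and 25 of the partner genes, and the block ended no member's call. Partner genes called higher numbered 36 to 38 and lower 24 to 25 when a library was left out, against 39 and 25 with all 6. Genes with few reads, such as ULK2 at 15 to 57 reads a library, are limited by depth.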

Other observations

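Ratios of FPKM between partners of the same complex, chosen after their values were seen and not tested, describe how the make-up of the transcripts differed. ATG14 stood at 6.94 ± 0.175 times UVRAG in carfilzomib libraries and 3.73 ± 0.106 times in DMSO libraries (SD, n = 3 each). RUBCN stood at 1.19 ± 0.0227 times UVRAG with carfilzomib and 0.467 ± 0.0487 times with DMSO. The FPKM of this inhibitor was thus above that of its partner in every carfilzomib library and below it in every DMSO library. Which of these transcripts is the more abundant also depends on the gene lengths behind the FPKM. BECN1 stood at 8.39 ± 0.634 times PIK3C3 with carfilzomib and 11.5 ± 1.06 times with DMSO.

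In the E3-like complex, ATG16L1 stood at 1.03 ± 0.0538 times ATG5 with carfilzomib and 0.626 ± 0.0228 times with DMSO, and ATG12 at 1.07 ± 0.0390 and 0.868 ± 0.0658 times ATG5 in the same order of groups. In the ULK complex, ATG101 stood at 3.42 ± 0.106 times ATG13 with carfilzomib and 2.01 ± 0.101 times with DMSO. ATG13 over RB1CC1 was 2.41, 2.49 and 2.34 with carfilzomib, against 2.96, 2.62 and 2.39 with DMSO, and these groups overlap.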
